A study of Mus musculus with 9 samples.

Results

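The natriuretic peptide system was described here by 8 genes of the deposited table of 41128 genes: the peptide genes Nppa, Nppb and Nppc, the protease genes Corin and Furin, and the receptor genes Npr1, Npr2 and Npr3. They were chosen by gene symbol, and all 8 were found once. Nuclear RNA from left ventricular PCM-1+ nuclei, a sort meant to hold cardiomyocyte nuclei, was sequenced from 9 FVB mice aged 12 days, with 3 mice in each of 3 groups. The score 1 cKO mice (S1 to S3), which had a cardiac stress score of 1, and the unstressed cKO mice (U1 to U3) were Fstl1KO/fl;Tie2-Cre, carrying 1 knockout and 1 floxed allele of Fstl1, the gene of a secreted glycoprotein, with Cre driven by Tie2 in the endothelial and endocardial lineage. The knockout allele was present in all cells of these mice, not in that lineage alone. The control mice (C1 to C3) are labelled wild type, and the paper gives them as carriers of a floxed allele without Cre. Score 1 stood for left ventricular volume overload. In these mice it was assigned from heart weight relative to body weight and not from Nppa, so the level of Nppa was not used to form the groups. In other mice of this age, the paper saw Nppa in the left ventricle by in situ hybridization in cKO hearts with higher ratios. The title of U3 contains "het", but its genotype is listed like that of U1 and U2. The paper describes female control mice and male unstressed cKO mice, so sex and genotype cannot be told apart between these groups.

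Natriuretic peptides are cardiac and vascular hormones that promote salt excretion and vasodilation. Nppa and Nppb encode the precursors of ANP and BNP, which are cut by the membrane protease corin and by furin and act on the guanylyl cyclase receptor encoded by Npr1, which makes cGMP. Nppc encodes the precursor of CNP, the ligand of the guanylyl cyclase encoded by Npr2, and Npr3 encodes the receptor that clears the peptides. In the ventricle, Nppa is high before birth and declines afterwards, and both Nppa and Nppb are widely used as markers of cardiac stress.

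Nppa and Nppb are neighbours. In mm10 with the GENCODE M21 annotation, Nppb lay on chromosome 4 from 147985788 to 147987205 and Nppa from 148000722 to 148002079, both on the plus strand, with 13516 bases and no complete gene between them. Their promoters are shown because a pair of neighbouring genes with shared regulators is compared below. Each line holds the 250 bases upstream of the RefSeq start (GRCm38.p6), 5′ to 3′, at chr4:148000472-148000721 for Nppa and chr4:147985650-147985899 for Nppb, where the RefSeq start lies downstream of the GENCODE one. Capitals mark matches, on either strand, to 6 searched motifs.
Nppa: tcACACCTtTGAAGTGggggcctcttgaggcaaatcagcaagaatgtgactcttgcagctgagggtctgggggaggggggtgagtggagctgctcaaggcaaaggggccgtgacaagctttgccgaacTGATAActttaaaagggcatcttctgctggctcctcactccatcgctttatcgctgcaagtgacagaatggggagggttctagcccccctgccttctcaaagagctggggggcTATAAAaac
Nppb: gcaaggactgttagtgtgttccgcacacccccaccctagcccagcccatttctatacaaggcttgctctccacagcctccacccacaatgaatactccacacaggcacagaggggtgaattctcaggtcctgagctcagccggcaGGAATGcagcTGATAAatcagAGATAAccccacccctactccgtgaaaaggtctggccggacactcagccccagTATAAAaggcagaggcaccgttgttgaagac
Both windows held a TATA box (TATAAA), which 12.4% of 32851 promoter windows of this length held, and a GATA motif (AGATAA, with T also allowed as the first base and G as the last, in 26.5%). The Nppa window also held a T-box motif (AGGTGT, in 11.8%), read on the opposite strand as the capitals ACACCT, and an Nkx2-5 motif (TNAAGTG, in 10.1%). The Nppb window held an M-CAT element (GGAATG, in 12.6%) and a second GATA motif. Neither window held a CArG box in its strict form (CC, then 6 bases of A or T, then GG), which 1.47% of windows held. Looser forms of the CArG box were not searched. The printed matches did not overlap each other. A match gives letters only and says nothing on whether a factor binds there.

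The libraries held 8262684 to 12698502 reads assigned to genes. The values are normalized counts, that is, reads per gene divided by a scaling factor of the library, so that 1 read was worth 0.850 to 1.18 normalized counts. Ttn, the titin gene of striated muscle, took 19.0% to 27.0% of the reads. Mitochondrial ribosomal RNA took 3.81% in S2 and 3.84% in U3, against 0.941% to 1.15% in the other 7 libraries. Fstl1 itself had 122 ± 23.9 normalized counts in score 1 cKO mice, 97.8 ± 27.8 in unstressed cKO mice and 107 ± 15.1 in control mice (SD, n = 3 each), so its level did not follow the genotype in these nuclei. Pcm1, the gene of the protein used for sorting, had 1241 ± 262 normalized counts in score 1, 1167 ± 103 in unstressed cKO and 1254 ± 145 in control mice (SD, n = 3 each).

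Expression within the system spanned a wide range. On the scale of normalized counts per kilobase of annotated exon, averaged over the 9 libraries, the level was highest for Nppb (1049), followed by Corin (543), Npr2 (147), Nppa (61.8), Furin (53.7), Npr1 (6.63) and Npr3 (3.60). Nppa and Furin were close in this order, and the per-kilobase level of Nppa ranged from 9.56 to 241 across libraries, against 35.6 to 70.6 for Furin, so their order differed between libraries. Npr1 and Npr3 also overlapped, at 4.13 to 15.8 for Npr1 and 0 to 11.9 for Npr3. By these counts Nppb was the major peptide transcript in all 9 libraries, at 5.67 to 122 times the normalized count of Nppa. The annotated exons held 781 bases for Nppb and 865 bases for Nppa. Of the exon bases of Nppa, 61.5% are shared with the antisense gene Gm13054, described below, while Nppb shares none. How reads in the shared bases were counted is not stated, so the level of Nppa, its rank and this ratio may be affected. No read of Nppc was found in any library, which allows up to 3 reads in a library, or 2.55 to 3.55 normalized counts.

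**Figure D1:**
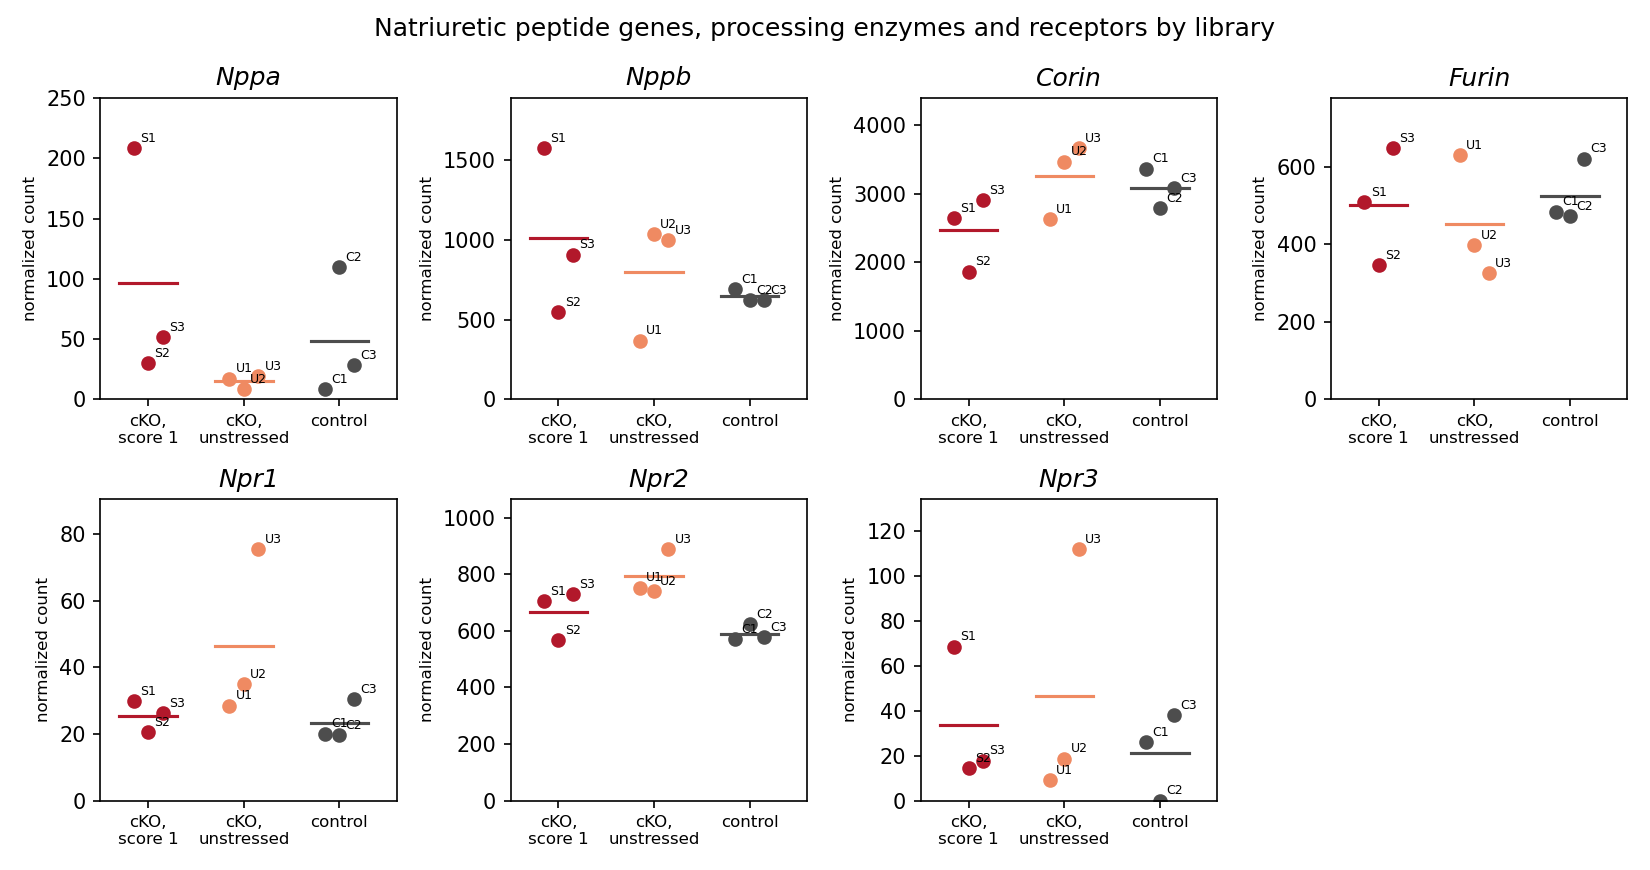
Normalized counts (y axis, linear from 0) of the 7 detected genes in each library, by group (x axis), with a line at the group mean. Nppa was highest in S1 (208) and next in C2 (109), and Npr2 in the 3 unstressed cKO mice (741 to 888) lay above the control mice (572 to 624).

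None of the 7 tested members passed the test in any comparison. The test was limma on log2(normalized count + 1) over 13454 genes with at least 10 normalized counts in at least 3 libraries, with Benjamini-Hochberg adjustment and a threshold of 0.05. Nppc did not pass this filter. The background was as low, with 0% of genes called in score 1 cKO mice against control mice, 0% in unstressed cKO mice against control mice, 0% in score 1 against unstressed cKO mice, and 0.00743% (1 gene) in score 1 against the 6 other mice. At an unadjusted p under 0.05, limma gave 0 members in score 1 against control mice and 0 in unstressed cKO against control mice, where 7.67% and 4.17% of all genes had such a p. It gave 1 member, Nppa, in score 1 against unstressed cKO mice, where the share of genes was 6.34%, and again Nppa in score 1 against the 6 other mice, with 8.09% of genes. DESeq2 on the recovered reads called none of the 7 members with reads in these comparisons and 29 (0.19%), 9 (0.0599%), 27 (0.178%) and 58 (0.388%) of the genes it tested. The comparisons share mice and are not independent of each other. The labels do not say how the 3 mice of a group were related or handled, so p-values measure the spread between these samples.

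Nppa, the ANP gene, varied widely between mice of the same group. It had 208, 29.9 and 51.5 normalized counts in S1, S2 and S3, against 17.1, 8.50 and 19.5 in U1, U2 and U3 and 8.27, 109 and 28.5 in C1, C2 and C3. All 3 score 1 cKO mice lay above all 3 unstressed cKO mice, while the control mice spread across both groups. Among all tested genes, 5.31% had the score 1 mice wholly above the unstressed cKO mice. The log2 fold change in score 1 against unstressed cKO mice was 2.20 (standard error 0.86, 95% interval 0.40 to 3.996, unadjusted p = 0.0194, adjusted p = 0.750 from limma). DESeq2 put it at 2.69 with an adjusted p of 0.0724, and called it without S2 (adjusted p = 0.0170) or without S3 (adjusted p = 0.0464), but not without S1, where the DESeq2 log2 fold change was 1.44 (adjusted p = 0.793). These left-out DESeq2 fits were added after the data were seen, and those without U1, U2 or U3 did not call Nppa. Fewer nuclei with the transcript and less transcript per nucleus cannot be told apart in these bulk samples.

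Against control mice, the difference in Nppa depended on single libraries. In score 1 cKO mice the log2 fold change was 1.16 (standard error 0.86, 95% interval -0.64 to 2.96, adjusted p = 0.798 from limma). Leaving out C2 gave 2.08, leaving out S1 gave 0.37 and leaving out C1 gave 0.29. In unstressed cKO mice it was -1.03 (standard error 0.86, adjusted p = 0.9996 from limma). Leaving out C2 gave -0.12. With all mice, DESeq2 put this log2 fold change at -1.70 (unadjusted p = 0.0438, adjusted p = 0.695). With score 1 set against the 6 other mice it was 1.68 (standard error 0.75, unadjusted p = 0.0363, adjusted p = 0.604 from limma) and 0.89 without S1. No adjusted p from limma passed the threshold in any of these fits. The mouse numbers in the titles form 2 series. Within the one of 6 mice, S1 and S2 (208 and 29.9) lay above U1, U2 and U3 (8.50 to 19.5) and C1 (8.27), and in the one of 3 mice S3 (51.5) lay between C2 (109) and C3 (28.5). With the series as a covariate the log2 fold change was 1.86 in score 1 against unstressed cKO mice and 1.498 in score 1 against control mice.

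**Figure D2:**
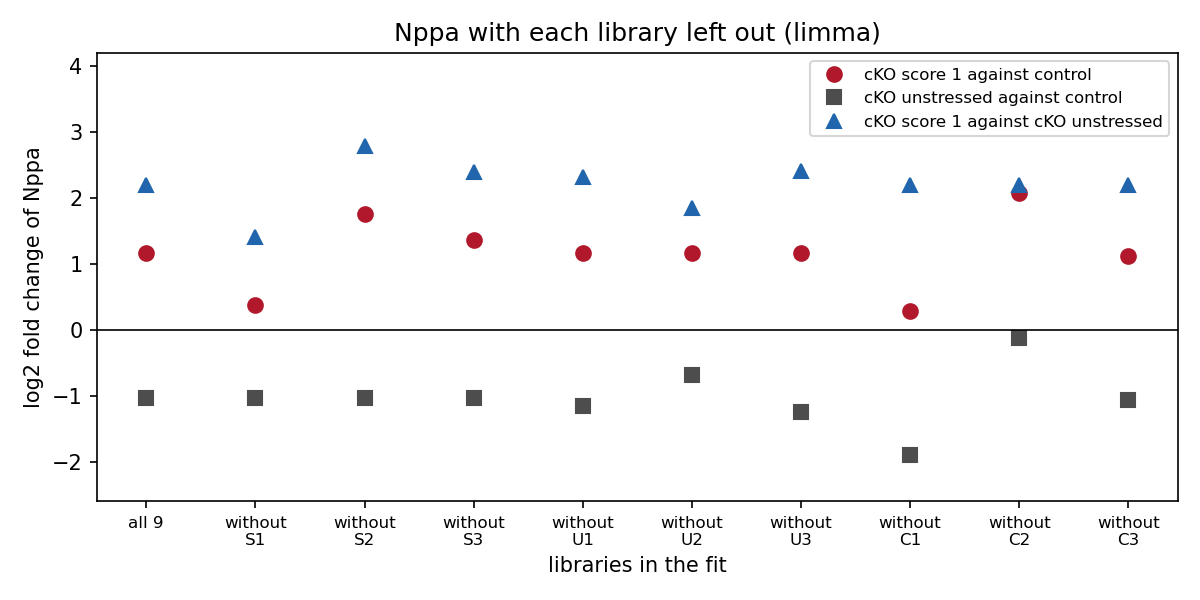
Log2 fold change of Nppa from limma (y axis) with all 9 libraries and with each library left out (x axis), for 3 comparisons. The difference between score 1 and unstressed cKO mice stayed between 1.40 and 2.78, while that between score 1 and control mice ranged from 0.29 to 2.08.

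Counting error was small beside this spread for the high libraries. The normalized counts of Nppa stood for 231, 35 and 55 reads in S1, S2 and S3, for 15, 10 and 22 reads in U1, U2 and U3, and for 7, 122 and 30 reads in C1, C2 and C3. The exact 95% Poisson intervals were 202 to 263 reads for S1 and 101 to 146 for C2, and they covered counting error only. For S2 the interval was 24.4 to 48.7 reads and for U3 13.8 to 33.3 reads, so the lowest score 1 cKO mouse and the highest unstressed cKO mouse were not separable by their counts.

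Markers of atrial cardiomyocytes, which make ANP at high levels, were low but present. Of 13 such markers 8 were tested and none passed, with a median log2 fold change of -0.23 in score 1 against control mice, beside -0.0095 over all genes. They summed to 281, 208 and 176 normalized counts in S1, S2 and S3, against 455, 145 and 275 in U1, U2 and U3 and 349, 110 and 241 in C1, C2 and C3. S1, the library with the most Nppa, thus had the highest sum of the score 1 group, and C2, which had the second most Nppa, the lowest of all 9. Myl4, an atrial myosin light chain gene, had 88.4, 35.0 and 40.3 normalized counts in S1, S2 and S3, against 68.5, 6.80 and 65.7 in U1, U2 and U3 and 70.9, 10.8 and 41.8 in C1, C2 and C3, so S1 was the highest library. The atrial potassium channel gene Kcna5 had 76.7, 8.55 and 2.81 in S1, S2 and S3, against 164, 1.70 and 7.99 in U1, U2 and U3 and 0, 0 and 1.90 in C1, C2 and C3. The atrial light chain gene Myl7 had 9.02, 5.98 and 2.81 normalized counts in S1, S2 and S3, against 17.1, 0 and 24.0 in U1, U2 and U3 and 36.6, 0 and 0.9504 in C1, C2 and C3. Kcnj3, a potassium channel gene, had 2.71, 20.5 and 83.4 in S1, S2 and S3, against 78.8, 25.5 and 63.0 in U1, U2 and U3 and 66.2, 24.2 and 108 in C1, C2 and C3, so S1 was the lowest library. Cacna2d2, a calcium channel subunit gene, had 9.92, 46.2 and 3.75 in S1, S2 and S3, against 14.4 to 76.5 in the other mice. Nr2f1 was at 0 in S1 and S2 and at 19.7 in S3. Nr2f2, a transcription factor of atrial identity, reached 86.3 in C1. Sln, which encodes sarcolipin, was at 0 in all libraries but C3 (0.9504), and Bmp10, a ligand of the BMP family, was at 0 in all but C1 (3.54). Kcna5, Myl7, Nr2f2, Sln and Bmp10 were chosen after their values were seen. The part of atrial cells in the level of Nppa was not tested.

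Trabecular and conduction cardiomyocytes, which keep Nppa expression longer than the compact wall, were followed by 13 markers. Of these 10 were tested and none passed. In score 1 against control mice the median log2 fold change was -0.63, and an unadjusted p under 0.05 was reached by 1 gene, which was lower. Of all genes, 3.29% were lower at that p. Their sum was 1165 to 3636 normalized counts in score 1, 2012 to 4338 in unstressed cKO and 2895 to 3811 in control mice, and S1 had the lowest sum of all 9 libraries. Most of it came from Cacna1g, a T-type calcium channel gene, with 946, 2014 and 3139 in S1, S2 and S3, against 3953, 1701 and 3229 in U1, U2 and U3 and 2303, 3021 and 2967 in C1, C2 and C3. Slit3, a guidance ligand gene, was the 1 gene with an unadjusted p under 0.05 (log2 fold change -1.64, unadjusted p = 0.0313, adjusted p = 0.621 from limma). Gja5, the connexin 40 gene, chosen after its values were seen, was between 0 and 11.2 in all libraries. The part of these cells in the level of Nppa was not tested.

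The Nppa gene is overlapped by Gm13054, annotated as antisense on the minus strand of chromosome 4 from 148001091 to 148004014, which shares 532 bases, or 61.5%, of the exon bases of Nppa. No source used here states whether reads were counted by strand, so reads of the pair cannot be told apart. Gm13054 had 80.3, 33.3 and 31.8 normalized counts in S1, S2 and S3, against 36.5, 5.95 and 29.3 in U1, U2 and U3 and 2.36, 3.59 and 13.3 in C1, C2 and C3. Every score 1 cKO mouse lay above every control mouse, as in 5.8% of all genes, and the log2 fold change was 2.90 (standard error 0.88, unadjusted p = 0.00381, adjusted p = 0.474 from limma). It was lowest in C1 and C2, which had the lowest and the highest Nppa of the control mice. With the reads of both genes added together, the log2 fold change of Nppa was 1.60 in score 1 against control mice (adjusted p = 0.652), -0.14 in unstressed cKO against control mice (adjusted p = 0.9996) and 1.74 in score 1 against unstressed cKO mice (adjusted p = 0.772), all from limma. Genes annotated on the opposite strand also shared 11.7% of the exon bases of Npr1, 5.7% of Npr2, 3.42% of Npr3, 2.72% of Corin and 1.29% of Furin.

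**Figure D3:**
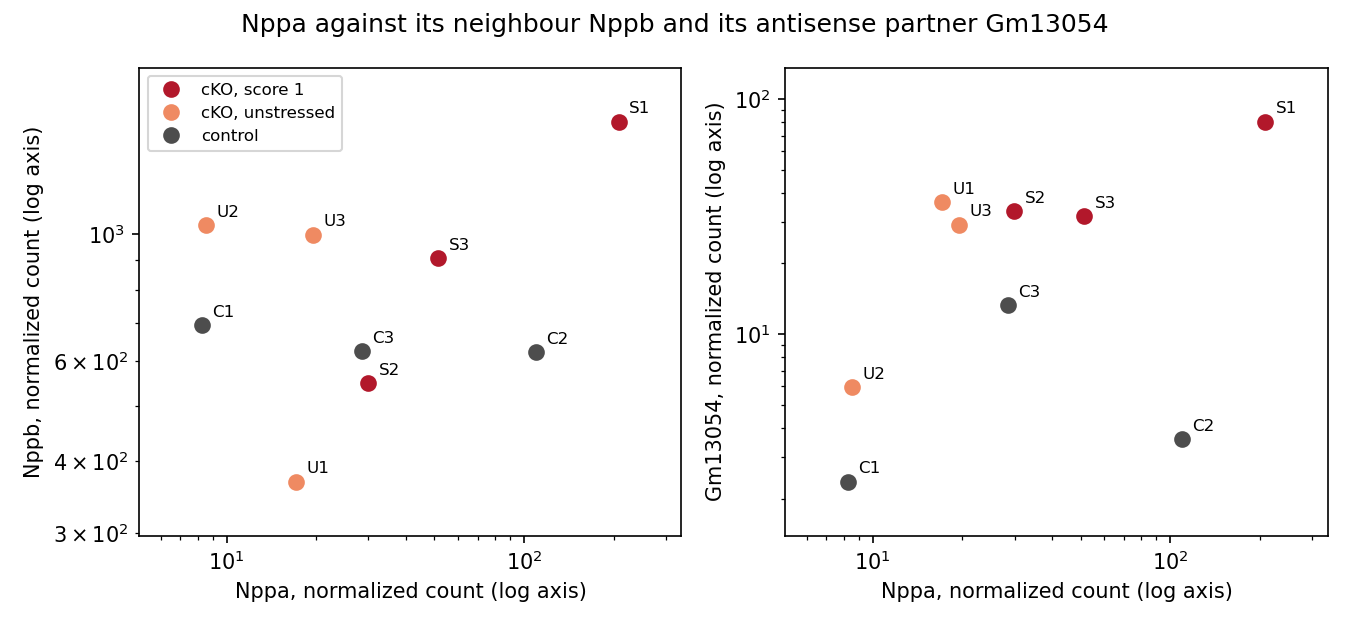
Nppa (x axis) against Nppb (left, y axis) and Gm13054 (right, y axis) in the 9 libraries, in normalized counts on log axes, coloured by group. S1 was highest for all 3 genes, while C2 was second for Nppa (109), near the other control mice for Nppb (621) and low for Gm13054 (3.59).

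Nppb, the BNP gene, had 1576, 549 and 909 normalized counts in S1, S2 and S3, against 369, 1037 and 999 in U1, U2 and U3 and 694, 621 and 624 in C1, C2 and C3. S1 was highest, S2 lay below every control mouse, and the unstressed cKO mice held both the lowest library and 2 libraries above every control mouse. The control mice kept within an SD of 41.0 normalized counts, against 521 in score 1 and 375 in unstressed cKO mice. The log2 fold change was 0.52 (standard error 0.37) in score 1 against control mice, 0.17 (standard error 0.37) in unstressed cKO against control mice and 0.35 (standard error 0.37) in score 1 against unstressed cKO mice, with limma adjusted p of 0.797, 0.9996 and 0.915. Without S1, the difference between score 1 and control mice was 0.13.

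The relation between Nppa and Nppb across mice did not pass the test. On log2(normalized count + 1), Pearson's r was 0.352 (permutation p = 0.354 over all pairings) and Spearman's rho was 0.10 (permutation p = 0.810) over 9 libraries. Without S1 and C2, the libraries farthest from the median of Nppa, r was -0.079 (permutation p = 0.864). It was -0.14 without S1 alone (permutation p = 0.731) and 0.485 without C2 alone (permutation p = 0.225), so the positive sign rested on S1. Within the 6 libraries of the larger mouse-number series (S1, S2, U1, U2, U3 and C1), r was 0.489 (permutation p = 0.332) and rho 0.257 (permutation p = 0.658). This was the only relation tested, so no p was adjusted. No source states whether mice of the 2 number series were handled separately.

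The share of Nppa relative to Nppb was also compared. The log2 ratio of Nppa to Nppb, with 1 added to each, was -2.91, -4.15 and -4.11 in S1, S2 and S3, against -4.35, -6.77 and -5.61 in U1, U2 and U3 and -6.23, -2.49 and -4.41 in C1, C2 and C3. C2 had the highest ratio of all 9 mice, followed by the 3 score 1 cKO mice. The mean was -3.73 ± 0.70 (SD, n = 3) in score 1 and -4.98 ± 1.55 (SD, n = 6) in the other mice, a difference of 1.25 (two-sided exact permutation test, p = 0.262, smallest possible p = 0.0119). Without C2 the difference was 1.75 (exact permutation p = 0.0357), a setting planned as 1 of 9 left-out libraries.

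Of the processing enzymes, Corin, the cardiac protease that activates ANP, was second to Nppb in its level per kilobase of exon. It had 2640, 1862 and 2904 normalized counts in S1, S2 and S3, against 2629, 3465 and 3662 in U1, U2 and U3 and 3365, 2787 and 3083 in C1, C2 and C3. S2 was lowest, and the groups overlapped. The log2 fold change was -0.34 (standard error 0.21) in score 1 against control mice, 0.07 in unstressed cKO against control mice and -0.41 (standard error 0.21, unadjusted p = 0.0693, adjusted p = 0.811 from limma) in score 1 against unstressed cKO mice. Without S2 and U3, the pair with more mitochondrial ribosomal RNA, the difference between score 1 and unstressed cKO mice was -0.12, and that between score 1 and control mice was -0.15.

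Furin, which encodes a widely expressed proprotein convertase, had 509, 346 and 648 normalized counts in S1, S2 and S3, against 631, 397 and 327 in U1, U2 and U3 and 484, 472 and 622 in C1, C2 and C3. The lowest library was U3 and the highest S3, and the groups overlapped. Its log2 fold changes were -0.10 in score 1 against control mice, -0.26 in unstressed cKO against control mice and 0.16 in score 1 against unstressed cKO mice (standard error 0.30 each), with 95% intervals between -0.89 and 0.79.

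Among the receptors, Npr2, the CNP receptor, was the most abundant per kilobase and the least variable. It had 705, 567 and 730 normalized counts in S1, S2 and S3, against 753, 741 and 888 in U1, U2 and U3 and 572, 624 and 577 in C1, C2 and C3. The unstressed cKO mice lay above all mice of the other groups. Between unstressed cKO and control mice, 5.19% of all genes were higher without overlap, and between score 1 and unstressed cKO mice 6.04% were lower without overlap. The share of genes for which both held was not computed. The log2 fold change was 0.42 (standard error 0.23, unadjusted p = 0.0799, adjusted p = 0.9996 from limma) in unstressed cKO against control mice, -0.25 (standard error 0.23, adjusted p = 0.893) in score 1 against unstressed cKO mice and 0.17 (standard error 0.23, adjusted p = 0.913) in score 1 against control mice. Its highest library, U3, was also highest for Corin, Npr1 and Npr3.

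Npr1, the ANP and BNP receptor, was low, with 29.8, 20.5 and 26.2 normalized counts in S1, S2 and S3, against 28.5, 34.9 and 75.4 in U1, U2 and U3 and 20.1, 19.7 and 30.4 in C1, C2 and C3. Apart from U3, all libraries lay between 19.7 and 34.9. The log2 fold change was 0.13 in score 1 against control mice, 0.85 in unstressed cKO against control mice and -0.72 in score 1 against unstressed cKO mice (standard error 0.64 each, adjusted p = 0.979, 0.9996 and 0.893 from limma). Without U3 the difference between unstressed cKO and control mice was 0.44.

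Npr3, the clearance receptor, had 68.6, 14.5 and 17.8 normalized counts in S1, S2 and S3, against 9.13, 18.7 and 112 in U1, U2 and U3 and 26.0, 0 and 38.0 in C1, C2 and C3. S1 and U3 stood above the other libraries, and the groups overlapped. The fitted log2 fold changes against control mice, 1.42 in score 1 and 1.47 in unstressed cKO mice (standard error 1.19 each), rested on the 0 in C2 and turned to -0.25 and -0.20 without it. Between score 1 and unstressed cKO mice the value was -0.05 (95% interval -2.54 to 2.44).

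**Figure D4:**
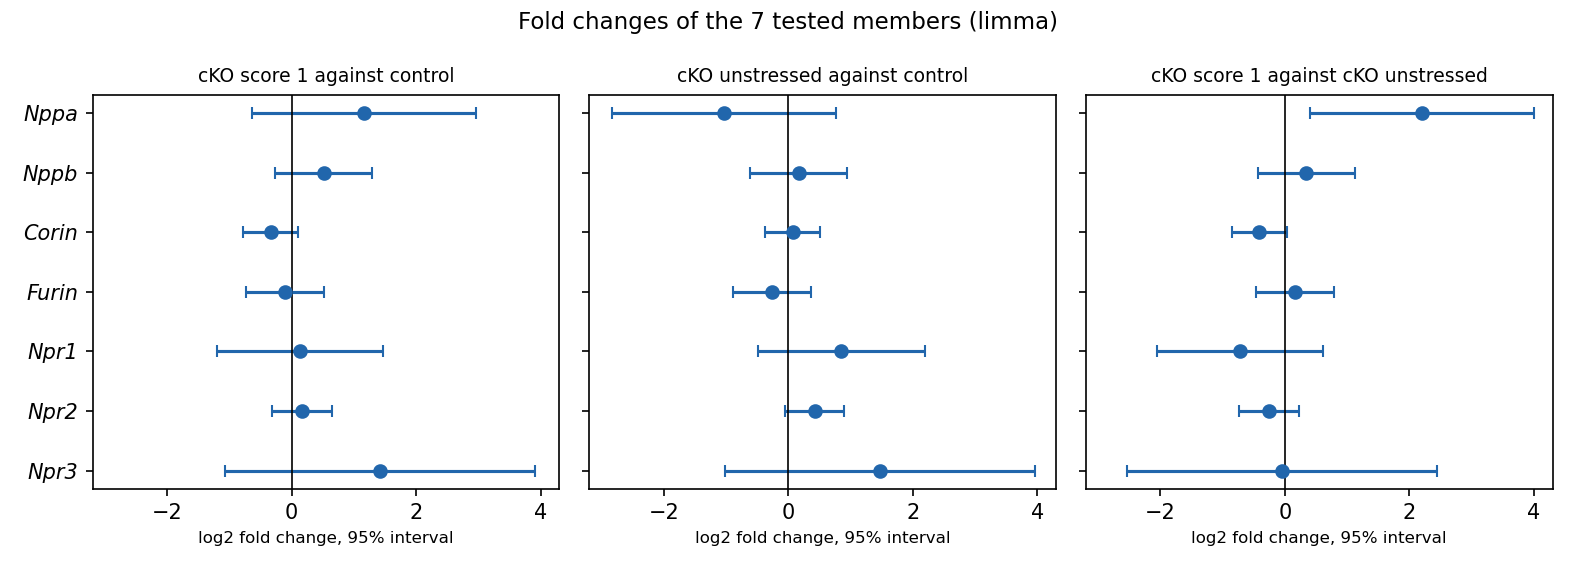
Log2 fold changes of the 7 tested members with 95% intervals from limma (x axis) in 3 comparisons (panels). The interval lies wholly to 1 side of 0 for Nppa in score 1 against unstressed cKO mice (0.40 to 3.996) and spans 0 in the other 20 cases.

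The other genes of the pathway are given as lists of known roles. Of 25 effectors, exporters and phosphodiesterases of cGMP signalling, 19 were tested and none passed in any of the 4 comparisons. At an unadjusted p under 0.05 in score 1 against control mice, 2 had higher and 1 had lower levels, where 4.38% of all genes were higher and 3.29% lower. The median log2 fold change was -0.0044, beside -0.0095 over all genes tested. Gucy1a2, a subunit of the soluble guanylyl cyclase that senses nitric oxide, had 125, 94.9 and 103 normalized counts in S1, S2 and S3, against 67.3, 56.1 and 29.3 in U1, U2 and U3 and 56.7, 51.1 and 42.8 in C1, C2 and C3. Score 1 lay wholly above both other groups, as it did for 1.72% of all genes, and the log2 fold change against control mice was 1.08 (standard error 0.48, unadjusted p = 0.0374, adjusted p = 0.634 from limma). Abcc4, a transporter that exports cyclic nucleotides, gave 1.02 (unadjusted p = 0.0444). Phkg1, a subunit of phosphorylase kinase that acts in glycogen breakdown rather than on cGMP, gave -2.06 (unadjusted p = 0.00275), with 13.5 normalized counts in S1 and 46.2 in S2 but 168 in S3, against 130 to 176 in the unstressed cKO group and 188 to 211 in control mice. Rgs2, a regulator of G protein signalling and a target of the cGMP-dependent kinase, gave -0.78 (unadjusted p = 0.0591).

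Of 20 genes of peptide cleavage and degradation, 13 were tested and none passed. The median log2 fold change in score 1 against control mice was 0.29, and 1 gene was higher at an unadjusted p under 0.05, beside 4.38% of all genes. That gene, Pcsk5, a proprotein convertase, had 102, 71.8 and 158 normalized counts in S1, S2 and S3, against 76.5, 62.1 and 39.9 in U1, U2 and U3 and 41.4, 25.1 and 80.8 in C1, C2 and C3, with a log2 fold change of 1.24 against control mice (unadjusted p = 0.0318, adjusted p = 0.622 from limma). Mme, which encodes neprilysin, the main enzyme that degrades ANP, gave 1.13 (unadjusted p = 0.120), with 8.07 normalized counts in C2 and 65.6 to 158 in the other libraries.

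None of the genes around the pair passed limma. Of 14 listed as neighbours, of which Tnfrsf8 and Vps13d proved to lie at least 2671 kb away, 12 were tested. The median log2 fold change was -0.08 in score 1 against control mice, and an unadjusted p under 0.05 was reached by 1 gene with a higher and 2 with a lower level. Of all genes, 4.38% were higher and 3.29% lower at that p. Clcn6, a chloride transporter gene 2.18 kb from Nppa, had 751, 316 and 340 normalized counts in S1, S2 and S3, against 338, 446 and 379 in U1, U2 and U3 and 285, 239 and 417 in C1, C2 and C3, so that S1 was highest here too. It was named for its position, after its values were seen. Fbxo6, an F-box gene 144 kb from Nppa, had 8.12, 27.4 and 24.4 normalized counts in S1, S2 and S3, against 144, 76.5 and 106 in U1, U2 and U3 and 31.9, 51.1 and 59.9 in C1, C2 and C3. It was the 1 neighbour that DESeq2 called, in score 1 against unstressed cKO mice (adjusted p = 0.0243), where the limma log2 fold change was -2.51 (adjusted p = 0.557).

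Of 34 transcription factors and cofactors linked to Nppa and Nppb, 31 were tested. In score 1 against control mice, 4 had a higher and 1 a lower level at an unadjusted p under 0.05, the median log2 fold change was 0.01, and limma called none. At that p, 4.38% of all genes were higher and 3.29% lower. Hdac5, a histone deacetylase that binds MEF2 factors, had 3617, 1675 and 2471 normalized counts in S1, S2 and S3, against 1373, 878 and 1145 in U1, U2 and U3 and 1097, 656 and 712 in C1, C2 and C3. All 3 score 1 mice lay above the 6 other mice, again beside 1.72% of all genes. The log2 fold change of Hdac5 against control mice was 1.62 (standard error 0.28), with an adjusted p of 0.0955 by limma and 0.000847 by DESeq2. The paper also reports higher Hdac5 from these data, and the list was chosen with earlier results known. Hand2, a basic helix-loop-helix factor of the ventricle, gave 1.27 (adjusted p = 0.474 from limma, 0.0332 from DESeq2), and Mef2c and Mef2d gave 0.86 and 0.65. Factors of the motif families searched in the promoters were chosen for that reason after the values were seen. Gata4 gave 0.45, Gata6 0.16 and Nkx2-5 -0.0010. Of the T-box factors, Tbx5 gave -0.03, Tbx20 0.27, Tbx2 -0.71 and Tbx3 -0.71. Tead1 and Tead4, which bind M-CAT elements, gave 0.29 and 0.88, and Srf, which binds CArG boxes, 0.07. None had an unadjusted p under 0.05 (0.0657 to 0.998).

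Of 27 other markers of cardiac stress, 24 were tested, and in score 1 against control mice 8 had a higher and 1 a lower level at an unadjusted p under 0.05, with a median log2 fold change of 0.53. At that p, 4.38% of all genes were higher and 3.29% lower. Limma called 1 of these markers, Myc, in score 1 against the 6 other mice (log2 fold change 1.89, adjusted p = 0.0490). DESeq2 called Myc in score 1 against control mice (adjusted p = 0.000617) and against unstressed cKO mice (adjusted p = 0.000106). Myc, a growth-promoting transcription factor, had 609, 377 and 532 normalized counts in S1, S2 and S3, against 148, 83.3 and 153 in U1, U2 and U3 and 109, 180 and 149 in C1, C2 and C3, so that it too was among the 1.72% of genes with score 1 above all other mice. Cdkn1a, a cell-cycle inhibitor, had 929, 195 and 147 in S1, S2 and S3, against 83.3, 50.2 and 33.7 in U1, U2 and U3 and 49.6, 13.5 and 97.9 in C1, C2 and C3, so S1 was the highest library for it as for Nppa and Nppb. All score 1 mice lay above all other mice for Cdkn1a too. Its log2 fold change was 2.50 in score 1 against unstressed cKO mice (adjusted p = 0.645 from limma, 0.000919 from DESeq2). Against control mice it was 2.85 (adjusted p = 0.342 from limma, 0.296 from DESeq2). Acta1, skeletal muscle actin, had 3233, 1001 and 929 in S1, S2 and S3, against 575, 1483 and 1293 in U1, U2 and U3 and 701, 473 and 408 in C1, C2 and C3. S1 was again highest, and score 1 overlapped with the unstressed cKO mice. The log2 fold change of Acta1 was 1.49 in score 1 against control mice (adjusted p = 0.474 from limma, 0.0313 from DESeq2) and 1.01 in unstressed cKO against control mice (unadjusted p = 0.0226, adjusted p = 0.9996 from limma). Ctgf, a secreted matrix factor, gave 1.60 in score 1 against control mice (adjusted p = 0.474 from limma). That these genes differed more from control mice than Nppa and Nppb did was not tested.

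Markers of non-myocyte cells were detected in all 9 libraries. The summed level of 17 endothelial and endocardial markers was 2692 to 3653 normalized counts in score 1, 2457 to 3106 in unstressed cKO and 2091 to 2989 in control mice, and that of 12 fibroblast markers was 2834 to 4918 in score 1, 3088 to 4000 in unstressed cKO and 2663 to 3339 in control mice. The 9 smooth muscle and pericyte markers summed to 4899 to 7531 in score 1, 5308 to 7329 in unstressed cKO and 6175 to 7541 in control mice. Most of this sum was Abcc9 (2512 to 5729 across libraries), a channel subunit gene that cardiomyocytes also express, while Myh11, a smooth muscle myosin gene, had 17.1 to 160, Mylk 81.5 to 245 and Cnn1 0 to 13.0. Abcc9 and Cnn1 were chosen after their values were seen. The 8 leukocyte markers summed to 168 to 207 in score 1, 204 to 235 in unstressed cKO and 180 to 356 in control mice. None of these markers passed limma. In score 1 against control mice, Cdh5 (endothelial), Fn1 and Col1a1 (fibroblasts) were higher and Cd68 (leukocytes) lower at an unadjusted p under 0.05. No smooth muscle or pericyte marker had such a p. Of 11 cardiomyocyte markers, 2 were lower at that p, Tnni3 (-0.53) and Ryr2 (-0.46). Of all genes, 4.38% were higher and 3.29% lower. Npr1 and Npr3 are also expressed in vascular and endocardial cells, and the part of those cells in the values of these receptors was not tested.

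The genes whose pattern over the 9 libraries was most like that of Nppa, by Pearson's r on log2(normalized count + 1) among 13453 genes, were Eif4g1 (0.947), Lrrc2 (0.945), Dhx38 (0.945), Herc4 (0.939) and Mpeg1 (0.924). Each was highest in S1 or C2 and lowest in C1. For Nppb they were Zfp651 (0.939), Cdkn2c (0.916), Fnip2 (0.915), Glt25d1 (0.913) and Gm20517 (0.911), each highest in S1 and lowest in U1. By this measure Nppb stood at rank 2839 for Nppa, and Gm13054 at rank 2090. The libraries share depth and sorting, and these are descriptions of likeness.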

How the data were processed

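The authors mapped 50-base single reads of PCM-1+ nuclear RNA to mm10 with STAR and used DESeq2; their versions are not stated, and the sources used here do not give the counting program, annotation or strand use. The deposited signal values are normalized counts per gene, made by the authors as reads divided by a library factor. In each library, 100% of values came out as whole reads (tolerance 0.001), and the recovered reads served as input to DESeq2 and edgeR as alternatives only. The 8 genes were taken by symbol, and list genes were named by a rule: the 4 smallest p-values of each list in score 1 cKO mice against control mice, plus the 5 genes most like Nppa and the 5 most like Nppb. Not all genes that met the rule are named, and genes named outside it are marked in the text.

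The test was limma 3.58.1 with trend (R 4.3.3) on log2(normalized count + 1), two-sided, for 13454 genes with at least 10 in at least 3 of 9 libraries, all 3 groups in 1 fit, except that score 1 against the 6 other mice was a fit of 2 groups. Fold changes are on that scale, on which changes of low genes came out smaller or larger than with the other tools. Nppa in score 1 against unstressed cKO mice was 2.20, against 2.69 from DESeq2. Npr3 in score 1 against control mice was 1.42, against 0.66 from DESeq2 and 0.64 from edgeR. DESeq2 1.42.0 and edgeR 4.0.16 gave the alternatives, with other pseudocounts (0.5 and 10), minimums, quantile normalization, a mouse-number covariate and left-out libraries. The scripts were tested on simulated data. Replicate numbers follow accession order. Positions and overlaps came from GENCODE M21 and promoters from RefSeq (GRCm38.p6), which held all 8 members. The members and lists were chosen with earlier results of these data known.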

Additional observations from a re-analysis of the deposited data

How the results depend on the processing

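No paired analysis was possible because the replicate numbers follow accession order and the labels tie no mouse of 1 group to a mouse of another. Of 96 alternative counts of called members, 94 kept the count of 0. The exceptions were DESeq2 without S2 and DESeq2 without S3 in score 1 against unstressed cKO mice, added after seeing the data, with 1 member (Nppa, 3.12 and 2.99). Of 640 alternative log2 fold changes for 28 member comparisons, 599 kept their direction and call, and 39 turned, all in values that were not called. Nppa turned in none.

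With S2 and U3 left out together, a choice made after seeing the data, Furin was 0.14 in score 1 against control mice, Nppb -0.062 and Corin -0.024 in unstressed cKO against control mice, Npr3 1.36 in score 1 against unstressed cKO mice, and Npr1 0.10 and Npr2 0.15 in score 1 against the 6 other mice. With the mouse-number covariate, Furin was 0.026 in score 1 against control mice and Npr3 0.44 in score 1 against unstressed cKO mice. After quantile normalization Npr3 was 0.074 in score 1 against unstressed cKO mice and Furin -0.039 in score 1 against the 6 other mice, where Npr3 was -0.015 by DESeq2 and -0.025 by edgeR. DESeq2 with left-out libraries, in score 1 against unstressed cKO mice, gave Nppb -0.14 without S1 and -0.0097 without U1, Furin -0.078 without S3 and -0.036 without U3, and Npr3 1.26 without U3. Causes were not tested beyond the libraries left out.

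Leaving out each library with limma, Furin ranged from -0.31 to 0.14 and Npr3 from -0.25 to 2.39 in score 1 against control mice. In unstressed cKO against control mice, Nppb ranged from -0.088 to 0.66, Corin from -0.024 to 0.21 and Npr3 from -0.20 to 2.44. In score 1 against unstressed cKO mice, Nppb ranged from -0.14 to 0.72, Furin from -0.049 to 0.43 and Npr3 from -0.79 to 0.95. In score 1 against the 6 other mice, Furin ranged from -0.18 to 0.27, Npr2 from -0.11 to 0.070 and Npr3 from -0.13 to 1.23. The ratio difference of Nppa to Nppb ranged from 0.84 to 1.75, and passed at 1.75 without C2. Their correlation ranged from -0.14, without S1, to 0.55. With 3 mice a group and 7 to 231 reads of Nppa per library, the intervals of its fold changes spanned over 3 log2 units.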
